A study of Mus musculus with 9 samples.

Results

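The genes described here encode RNA polymerase II (Pol II), the general transcription factors that place it on promoters, the TBP-associated factors (TAFs) and Mediator. They were taken by gene symbol: the 13 Polr2 genes, the genes whose symbols begin with Taf or Med and a digit, those that begin with Gtf2a, Gtf2b, Gtf2e, Gtf2f or Gtf2h, and Tbp, Tbpl1 and Tbpl2. These 83 genes are among 24454 in the count table, and 82 of them were among the 16964 genes with enough counts to be tested. Taf1c was the exception.

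RNA was sequenced from 2-cell embryos of ICR mice, an outbred stock, cultured from the zygote, with 3 embryos pooled in each of 9 libraries. In 3 libraries the embryos had been given high glucose together with ZGW rat serum, in 3 they had been given high glucose alone, and 3 were controls. The sources used here do not give the glucose level, the serum dose or the identity of ZGW. Whether the high glucose and control embryos received drug-free rat serum is not in the labels, so any effect of serum itself cannot be told apart from that of ZGW. The labels name biological replicates but not the matings or cultures behind them, so a p-value here speaks of the variation among these embryo pools.

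Pol II transcribes all protein-coding genes. TFIID, made of TBP and the TAFs, recognises the core promoter, TFIIA, TFIIB, TFIIE, TFIIF and TFIIH complete the initiation complex, and Mediator passes signals from bound activators to the polymerase. The 2-cell stage is when the mouse embryo makes its first large wave of new transcripts while RNA stored by the oocyte is being lost. In growing mouse oocytes the TBP paralog TBPL2 takes the place of TBP in initiation, and several other factors, among them TAF4B, TAF7L and the TFIIA-like GTF2A1L, have germ cell roles.

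Library totals ranged from 11934924 to 16916343 counts, so a limit of 3 counts corresponded to 0.177 to 0.251 CPM, which are counts scaled to a common library size, for counting error only. Libraries of the same group differed far beyond sampling noise, with chi-square values of 50.9 to 136 per degree of freedom. Control replicate 1, glucose plus ZGW serum replicate 3 and high glucose replicate 1 had the lowest median correlations with the libraries of other groups, at 0.802, 0.803 and 0.812, against 0.831 to 0.844 for the other 6. Summed oocyte and early embryo markers were 103907 to 151898 CPM with glucose plus ZGW serum, 49670 to 76083 CPM under high glucose and 76475 to 94358 CPM in control. Omt2a and Omt2b carried much of these sums, averaging 41052 and 46158 CPM with serum and 19483 and 22813 CPM under high glucose. The 17 genes of the list were split. In high glucose against control 8 were higher and 9 lower, and with serum against high glucose 11 were higher and 6 lower. Summed 2-cell activation markers were 3688 to 9481 CPM with glucose plus ZGW serum, 12415 to 19285 CPM under high glucose and 8233 to 15437 CPM in control. Of the 16 genes tested, 15 were higher in high glucose than in control. With glucose plus ZGW serum all 16 were lower than under high glucose, and 12 were lower than in control. Cumulus and granulosa markers summed to at most 58.1 CPM in a library. Foxl2 was at or below 0.298 CPM, but Amhr2 was at 4.40 to 12.6 CPM and Kitl reached 29.8 CPM. Ptprc of blood cells was at or below 0.0532 CPM, whereas Cd52 was at 1.87 to 21.3 CPM and Laptm5 at 0.0730 to 18.3 CPM. Sperm markers summed to 13.7 to 25.7 CPM with glucose plus ZGW serum, 3.75 to 9.61 CPM under high glucose and 8.48 to 12.8 CPM in control. Alpha-globin Hba-a1 was counted at 40.3 to 262 CPM, whereas Hbb-bs did not pass 0.326 CPM. No marker was at 0 in all 9 libraries, and the part of these markers in the results below was not tested.

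Most of the machinery was present as RNA in every embryo pool. Of the 83 members, 80 were counted in all 9 libraries, 67 averaged at least 10 CPM and 31 averaged at least 100 CPM. Together they made up 1.37%, 1.28% and 1.30% of counts with glucose plus ZGW serum, 1.15%, 1.14% and 1.08% under high glucose, and 1.41%, 1.46% and 1.23% in control. The high glucose libraries were the 3 lowest and did not overlap with either other group. These are shares of a library, so fewer cells of a kind and less RNA per cell cannot be told apart. Per kilobase of transcript, the members' median level was 24.5 CPM per kb, against 3.83 over all genes tested. Their values were also steadier within a group, with a median coefficient of variation of 32.7% against 49.4% over all genes tested.

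Subunits of the same complex, which are present in the protein assembly in fixed proportion, did not share one RNA level. In Pol II the level per kb ran from 796 CPM per kb for Polr2j, which pairs with Polr2c in the assembly platform, through 403 for Polr2l to 1.62 for Polr2m, a Pol II-bound regulator also known as Gdown1. Polr2a, the catalytic subunit that carries the C-terminal repeat domain, was at 1.77 CPM per kb, 449.9 times below Polr2j. Part of this ratio comes from dividing by lengths of 6270 and 646 bases, as Polr2a averaged 11.1 CPM and Polr2j 514 CPM. In TFIID, Taf9, a histone-fold subunit, led at 845 CPM per kb, followed by Taf12 at 74.0, with Taf1, the largest subunit, lowest at 2.17. Tbpl2, of the TBP family, was at 74.5. Among TFIIA, TFIIB, TFIIE and TFIIF, Gtf2a2, the small TFIIA subunit, reached 1109 CPM per kb and Gtf2a1, its larger partner, 133, with the TFIIE subunit gene Gtf2e1 at 4.46. In TFIIH, Gtf2h5 was at 69.7, Gtf2h1 at 18.2 and Gtf2h4 at 1.79 CPM per kb.

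Mediator showed the same unevenness. Med27, of the tail region, was the highest of all 83 genes at 1332 CPM per kb, with Med30 at 221 and Med16 at 0.542 in the same group. In the middle module Med10 stood at 799, Med21 at 734 and Med9 at 2.84 CPM per kb. In the head, Med6 was at 185, Med11 at 36.9 and Med17, a core scaffold subunit, at 1.71. The kinase module lay below the members' median of 24.5 CPM per kb, with Med13 at 13.7, Med13l at 5.30 and Med12 at 1.14. Of these, Med13 and Med13l were above the median of 3.83 over all genes tested. Across the 82 tested members the Spearman correlation of level per kb with transcript length was -0.57, against -0.38 over 16718 tested genes, which share the same libraries and protocol. Level per kb is CPM divided by that same length, so it is not independent of length.

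**Figure D1:**
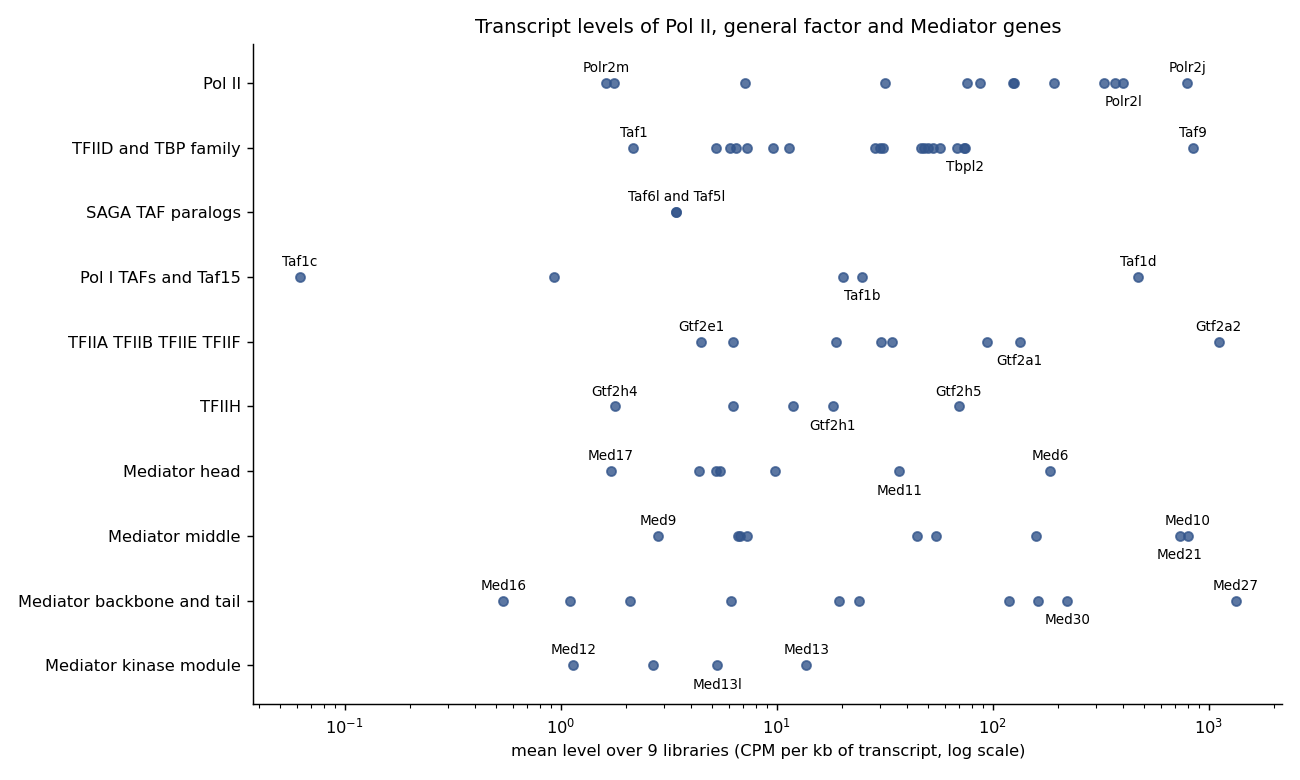
Mean level over the 9 libraries, in CPM per kb of transcript on a log scale, of each member except Med9os. Each complex has 1 row, with the highest and lowest members named. Members of the same complex differ in level per kb, in Pol II from 796 for Polr2j to 1.62 for Polr2m, and Med27 at 1332 CPM per kb is the highest of the 83.

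The Taf symbols also catch genes outside TFIID. Taf1a, Taf1b, Taf1c and Taf1d encode subunits of the RNA polymerase I selectivity factor, Taf15 encodes an RNA-binding protein of the FET family, and Taf5l and Taf6l encode SAGA subunits. Taf1d was at 471, Taf1b at 24.9 and Taf1c at 0.0622 CPM per kb, while Taf5l and Taf6l were both at 3.43. Med9os, an RNA antisense to Med9 and no Mediator subunit, was at 3.48.

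Some levels are uncertain because members overlap or share sequence with other genes, and the strand setting of the counting is not given. Taf9 shares 73.8% of its exonic bases and 68.7% of its 50-base stretches with Ak6, a gene on the same strand that encodes an adenylate kinase. Med10 overlaps the antisense gene Gm26819 over 92.8% of its exonic bases, Taf10 overlaps Ilk over 45.9%, Polr2i overlaps Tbcb over 26.8% and Med31 overlaps 4930563E22Rik over 26.3%. In all, 15 members had more than 10% antisense overlap and 5 shared more than 10% of their 50-base stretches with another gene, among them Polr2k at 21.6% and Polr2l at 20.9%.

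In embryos given high glucose, Med31, Med29 and several small Pol II subunits stood below control and Polr2b, Taf3 and Taf8 above it, in values that did not pass the main test. In high glucose against control, 36 of the 82 tested members had a positive log2 fold change and 46 a negative one, with a median of -0.10 against -0.02 over all genes tested, of which 49% were higher. No gene of the 16964 passed an adjusted p of 0.05 in edgeR's quasi-likelihood test, and the lowest adjusted p of a member was 0.627. At an unadjusted p under 0.05 there were 11 members, 5 higher and 6 lower, or 13.4% of those tested, where all genes gave 7.39% (3.88% higher and 3.5% lower). Without control replicate 2 there were 5 such members, and without control replicate 1 or high glucose replicate 1 there were 6. Groups did not overlap for 7 members that were higher and 10 that were lower under high glucose, where 6.84% and 6.91% of all genes did so. DESeq2 called 122 genes (0.743% of 16419) and no member, and limma-voom called 0.

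Among the 13 Pol II genes, 9 were lower and 4 higher in high glucose, with a median log2 fold change of -0.18. Polr2h, a subunit shared by all 3 nuclear polymerases, had 22.9, 41.1 and 43.6 CPM under high glucose, against 59.4, 77.5 and 103 CPM in control. Every high glucose library was below every control library, and the log2 fold change was -1.16 ± 0.36 (SE, edgeR adjusted p = 0.627). Polr2j had 290, 375 and 326 CPM under high glucose, against 524, 625 and 410 CPM in control, also without overlap (log2 fold change -0.65 ± 0.24, edgeR adjusted p = 0.627). Polr2c, its partner, had 510, 355 and 512 CPM under high glucose, against 711, 706 and 611 CPM in control, a log2 fold change of -0.56 ± 0.24. Polr2i, a subunit known for its part in transcript cleavage and fidelity, and Polr2l, shared by all nuclear polymerases, were likewise below control in every library, at -0.81 ± 0.41 and -0.70 ± 0.34. Summed over the 13 genes, Pol II RNA was 1735, 2126 and 2121 CPM under high glucose, against 2737, 3234 and 2514 CPM in control. The sum is carried by Polr2l, Polr2j and Polr2c, while Polr2d and Polr2e were at -0.10 ± 0.25 and 0.04 ± 0.34.

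The catalytic pair lay on the other side. Polr2b, the other large catalytic subunit, had 24.7, 68.7 and 34.6 CPM under high glucose, against 14.2, 21.0 and 24.0 CPM in control. The groups did not overlap, and the log2 fold change of 1.11 ± 0.48 (edgeR adjusted p = 0.672) ranged from 0.55, without high glucose replicate 2, to 1.39 when single libraries were left out. Polr2a had 7.11, 8.39 and 11.6 CPM under high glucose, against 4.60, 7.75 and 1.90 CPM in control, with overlap and a log2 fold change of 0.93 ± 0.75. Polr2m had 16.0, 1.00 and 4.16 CPM under high glucose, against 0.949, 0.447 and 0 CPM in control. It had 13, 6 and 0 counts in control, and high glucose replicate 1 carries most of its level. The log2 fold change of Polr2m was 3.90 ± 1.64 (edgeR adjusted p = 0.666). It ranged from 2.45 to 4.93 when single libraries were left out.

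In the TFIID and TBP family, 11 of 19 genes were higher and 8 lower in high glucose, with a median log2 fold change of 0.07. Taf3, whose PHD finger binds trimethylated histone H3 lysine 4, had 234, 113 and 201 CPM under high glucose, against 78.7, 49.4 and 133 CPM in control. The ranges overlapped (log2 fold change 1.07 ± 0.39, edgeR adjusted p = 0.627). Taf8, a histone-fold partner of Taf10, had 25.6, 38.5 and 46.2 CPM under high glucose, against 19.7, 11.6 and 19.0 CPM in control, without overlap (1.13 ± 0.51, edgeR adjusted p = 0.676). Taf15, outside TFIID, had 3.03, 5.16 and 2.77 CPM under high glucose, against 0.730, 0.373 and 0.292 CPM in control, the lowest p of the higher members at 2.95 ± 0.86 (edgeR adjusted p = 0.627). It had 10, 5 and 4 counts in control and passed the filter on low counts through the other groups.

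In Mediator, 7 of 9 middle genes and 7 of 10 backbone and tail genes were below control in high glucose, with medians of -0.61 and -0.53. Med31, a middle module subunit, had 88.9, 102 and 130 CPM under high glucose, against 168, 218 and 196 CPM in control. No libraries overlapped (log2 fold change -0.86 ± 0.26, edgeR adjusted p = 0.627). Med29, of the tail, had 98.4, 142 and 95.3 CPM under high glucose, against 154, 373 and 185 CPM in control, where replicate 2 stands well above the rest (-1.08 ± 0.43, edgeR adjusted p = 0.651, and -0.59 without that library). The 4 kinase module genes were all on the positive side, at a median of 0.31, with none past an unadjusted p of 0.05. Gtf2h5, a small TFIIH subunit that stabilises the complex, had 69.2, 68.4 and 83.8 CPM under high glucose, against 155, 118 and 137 CPM in control (-0.89 ± 0.36, edgeR adjusted p = 0.652).

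**Figure D2:**
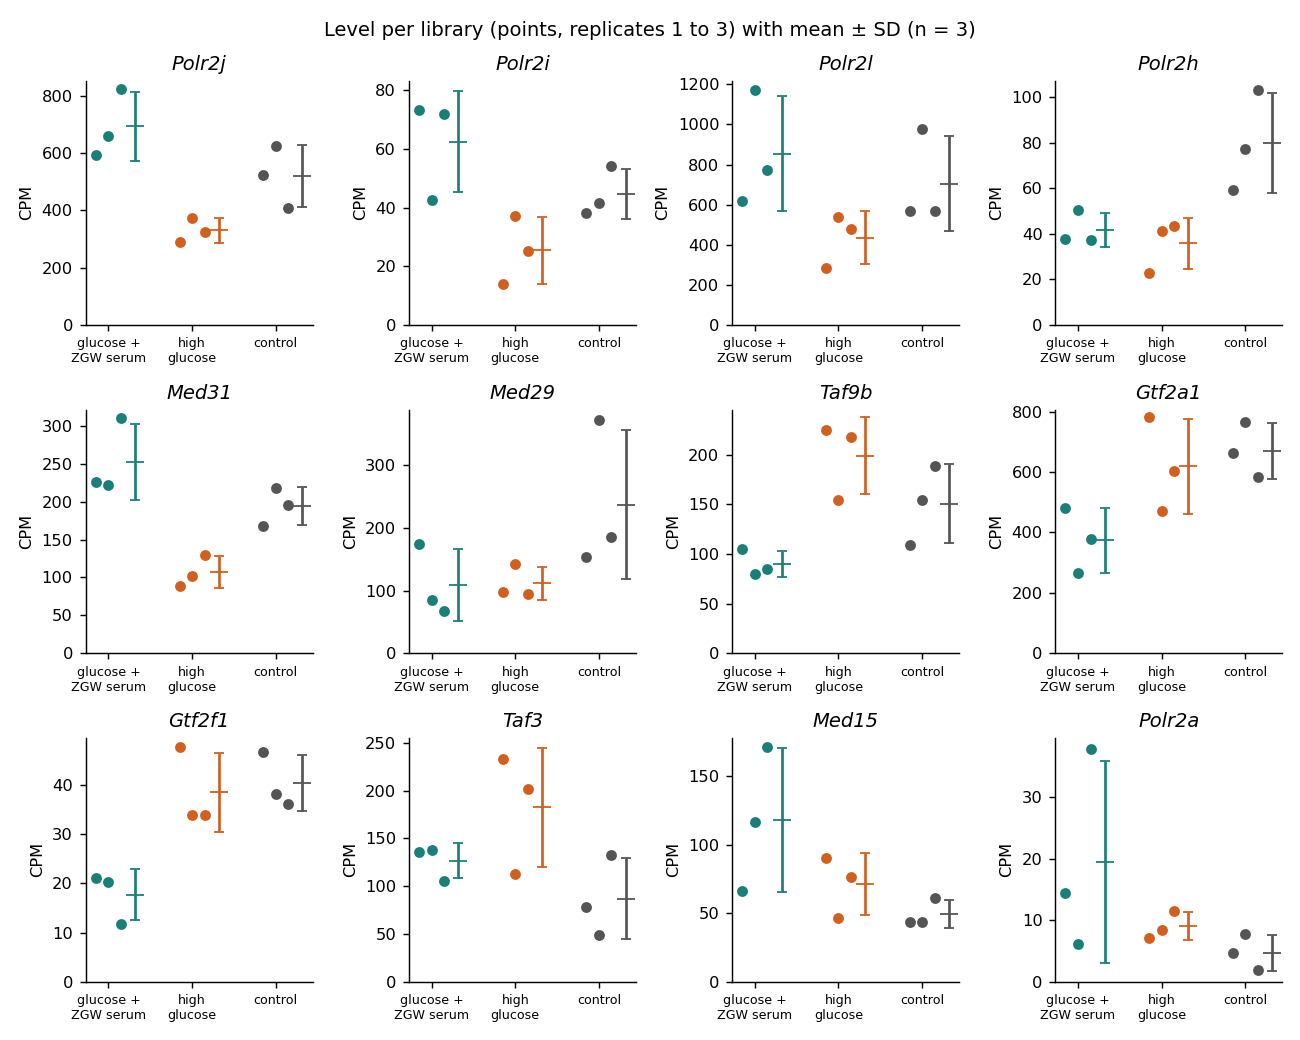
CPM in each library (points, replicates 1 to 3 from left to right in a group) with the mean and SD (n = 3) for 12 members, glucose plus ZGW serum at the left, high glucose in the middle and control at the right. Polr2j and Med31 are lowest in the 3 high glucose libraries, at 290 to 375 and 88.9 to 130 CPM, while Gtf2f1 and Taf9b are lowest with glucose plus ZGW serum.

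With ZGW serum, the Pol II subunit genes Polr2f, Polr2i, Polr2j and Polr2l and the Mediator gene Med31 had higher values than under high glucose alone, and Taf9b and the TFIIF subunit gene Gtf2f1 lower ones, none of them past edgeR's threshold. In glucose plus ZGW serum against high glucose, 31 of the 82 tested members had a positive log2 fold change and 51 a negative one, with a median of -0.15 against 0.00 over all genes tested, of which 50.1% were higher. No gene passed edgeR's threshold, and the lowest adjusted p of a member was 0.370. At an unadjusted p under 0.05 there were 10 members, 5 higher and 5 lower, or 12.2% of those tested, where all genes gave 8.68% (3.8% higher and 4.89% lower). Without glucose plus ZGW serum replicate 1 there were 16 such members. Groups did not overlap for 5 higher members and 9 lower ones, where 9.08% and 8.26% of all genes did so, and the total of 17.1% of members lies at the 17.3% of all genes. DESeq2 called 241 genes (1.5% of 16090), among them Med31, Polr2j and Taf9b, and limma-voom called 0. High glucose libraries are shared with the first comparison, so the values of the 2 comparisons are only set side by side.

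Of the 13 Pol II genes, 7 were higher and 6 lower with ZGW serum than under high glucose alone, with a median of 0.21. Polr2c, Polr2d, Polr2e and Polr2k lay between -0.26 and -0.04, and Polr2g and Polr2h at 0.21 and 0.22, all with overlapping groups. Polr2j had 594, 661 and 825 CPM with glucose plus ZGW serum, against 290, 375 and 326 CPM under high glucose. All 3 serum libraries were above all 3 others, with a log2 fold change of 1.07 ± 0.25, an edgeR adjusted p of 0.370 and a DESeq2 adjusted p of 0.0153. Polr2i had 73.2, 42.5 and 71.7 CPM with glucose plus ZGW serum, against 13.8, 37.0 and 25.3 CPM under high glucose, again without overlap (1.30 ± 0.42, edgeR adjusted p = 0.465). Polr2l had 620, 1173 and 770 CPM with glucose plus ZGW serum, against 286, 538 and 481 CPM under high glucose (0.97 ± 0.35, edgeR adjusted p = 0.508). The lowest serum library stood above the highest glucose library for Polr2l, and this was so too for Polr2f, another shared subunit, at 0.90 ± 0.35 (edgeR adjusted p = 0.533). Summed Pol II RNA was 2505, 3156 and 3211 CPM with glucose plus ZGW serum, above each of the 1735, 2126 and 2121 CPM under high glucose.

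Med31 had the lowest p of the 82 members. It had 226, 222 and 310 CPM with glucose plus ZGW serum, against 88.9, 102 and 130 CPM under high glucose. The groups were far apart relative to their spread, with a log2 fold change of 1.24 ± 0.26, an edgeR adjusted p of 0.370 and a DESeq2 adjusted p of 0.00465. With single libraries left out the log2 fold change was 1.09 to 1.40, and adjusted p over the alternatives ran from 0.00465 to 0.851. Taf9b, the X-linked paralog of Taf9, had 105, 79.9 and 85.3 CPM with glucose plus ZGW serum, against 224, 154 and 217 CPM under high glucose. All serum libraries were lower (-1.14 ± 0.28, edgeR adjusted p = 0.370, DESeq2 adjusted p = 0.0228).

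Of the 8 TFIIA, TFIIB, TFIIE and TFIIF genes, 7 were lower than under high glucose, with a median of -0.50, and of the 19 TFIID and TBP genes 14 were lower, with a median of -0.36. Over all tested members 51 of 82 were lower, and no test sets these groups apart from that share. The 5 TFIIH genes had 2 higher and 3 lower values, with Gtf2h5 at 0.66 ± 0.36. Gtf2f1, the large TFIIF subunit that escorts Pol II, had 21.1, 20.3 and 11.8 CPM with glucose plus ZGW serum, against 47.7, 33.8 and 33.9 CPM under high glucose. No libraries overlapped (-1.12 ± 0.37, edgeR adjusted p = 0.476, DESeq2 adjusted p = 0.0677). Gtf2a1 had 480, 265 and 378 CPM with glucose plus ZGW serum, against 782, 470 and 605 CPM under high glucose, with overlap (-0.73 ± 0.28, edgeR adjusted p = 0.534). Gtf2h1, a core TFIIH subunit, had 38.3, 26.9 and 13.0 CPM with glucose plus ZGW serum, against 80.0, 59.9 and 32.6 CPM under high glucose, with overlap in 1 library pair (-1.14 ± 0.46, edgeR adjusted p = 0.546). Taf12 and Taf13, histone-fold TAFs, were also below high glucose in every library, at -0.36 ± 0.27 and -0.30 ± 0.25, a smaller difference in genes with tight replicates.

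The genes of the Pol I selectivity factor differed among themselves. Taf1b had 8.05, 21.3 and 22.7 CPM with glucose plus ZGW serum, against 64.6, 53.4 and 27.1 CPM under high glucose, without overlap (-1.48 ± 0.50, edgeR adjusted p = 0.481). Taf1a stood at -0.90 ± 0.42 without overlap, while Taf1d, the most abundant of them, had 548, 471 and 177 CPM with glucose plus ZGW serum, against 422, 586 and 320 CPM under high glucose, with overlap (-0.15 ± 0.39). Taf1c was not tested. In Mediator, the 10 backbone and tail genes were higher in 7 cases at a median of 0.24. The 4 kinase module genes were all lower, at a median of -0.34. Med31 was the only Mediator gene past an unadjusted p of 0.05 in edgeR.

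In glucose plus ZGW serum against high glucose, Med31 and Polr2j had the lowest edgeR p of the members that were higher. Taf9b and Gtf2f1 had the lowest edgeR p of the members that were lower. These genes are also the members that DESeq2 called in any comparison. Their promoters are shown. Each runs from 250 bases before to 50 after the annotated start, 300 bases in all, from RefSeq on GRCm38.p6, on the gene's strand, with matches to the searched motifs in capitals. Med31 lies on the minus strand at chr11:72215543-72215842, Polr2j on the plus strand at chr5:136116441-136116740, Taf9b on the minus strand at chrX:106221109-106221408 and Gtf2f1 on the minus strand at chr17:57011239-57011538.
Med31: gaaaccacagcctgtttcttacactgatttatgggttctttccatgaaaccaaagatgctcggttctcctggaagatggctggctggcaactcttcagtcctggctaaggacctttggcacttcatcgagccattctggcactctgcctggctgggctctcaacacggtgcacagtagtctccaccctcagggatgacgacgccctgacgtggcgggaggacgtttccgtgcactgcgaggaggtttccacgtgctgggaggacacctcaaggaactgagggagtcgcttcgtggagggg
Polr2j: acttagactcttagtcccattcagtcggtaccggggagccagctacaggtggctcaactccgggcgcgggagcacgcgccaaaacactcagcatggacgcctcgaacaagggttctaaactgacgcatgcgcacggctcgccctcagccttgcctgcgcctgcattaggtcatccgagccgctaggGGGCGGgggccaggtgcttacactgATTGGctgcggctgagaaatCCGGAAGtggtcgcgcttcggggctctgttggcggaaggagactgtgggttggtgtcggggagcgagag
Taf9b: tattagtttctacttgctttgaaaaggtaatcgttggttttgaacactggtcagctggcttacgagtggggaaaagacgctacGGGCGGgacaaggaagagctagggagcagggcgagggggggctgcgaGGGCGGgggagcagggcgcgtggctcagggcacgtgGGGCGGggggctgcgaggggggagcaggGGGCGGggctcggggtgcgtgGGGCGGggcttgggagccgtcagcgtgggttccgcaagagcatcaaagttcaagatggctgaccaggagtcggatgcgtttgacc
Gtf2f1: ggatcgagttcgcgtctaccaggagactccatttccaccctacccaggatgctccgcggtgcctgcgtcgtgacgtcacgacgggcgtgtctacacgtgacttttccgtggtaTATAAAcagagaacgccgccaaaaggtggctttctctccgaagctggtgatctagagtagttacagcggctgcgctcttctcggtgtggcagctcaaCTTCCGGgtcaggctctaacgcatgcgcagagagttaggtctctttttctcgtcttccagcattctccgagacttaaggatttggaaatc

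The motifs searched on both strands were the TATA box spelled TATAAA, the CCAAT box by that name, the GC box spelled GGGCGG, an ETS motif spelled CCGGAAG and the longer NRF1 and YY1 motifs, and no match printed here overlaps another. The Polr2j window holds a GC box at -64, CCAAT on the minus strand at -39 and an ETS match at -19, counted from the start site. The Taf9b window holds 5 GC boxes between -167 and -35, the Gtf2f1 window holds TATAAA at -137 and an ETS match on the minus strand at -40, and the Med31 window holds none of the 6 motifs. Of the 83 members, 71 matched a promoter by symbol. CCGGAAG stood in 35.2% of these, against 16.3% of the 12299 tested genes with a promoter and 9.93% of all 27025. GGGCGG stood in 70.4% of the members, against 59.5% of tested genes and 38.2% of all. TATAAA stood in 16.9% of the members, against 10.8% of tested genes and 15.7% of all. The members thus lie near the share of all genes and above that of tested genes. CCAAT stood in 33.8% of the members, against 43.1% of tested genes and 41.1% of all, the NRF1 motif in 0 of 71 against 1.90% and 1.07%, and the YY1 motif in 1.41%, which is Taf5 alone, against 1.90% and 0.995%. A match is a description of the letters and not a binding site.

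With ZGW serum, Gtf2f1, Gtf2a1 and Taf9b had lower values than in control and Med15 higher ones, none past edgeR's threshold. In glucose plus ZGW serum against control, of the 82 tested members 35 were higher and 47 lower than in control, with a median of -0.12 against 0.00 over all genes tested, of which 50% were higher. No gene passed edgeR's threshold and the lowest adjusted p of a member was 0.403. At an unadjusted p under 0.05 there were 10 members, 2 higher and 8 lower, or 12.2%, where all genes gave 9.86% (4.21% higher and 5.65% lower). Without glucose plus ZGW serum replicate 3 there were 5 such members, and 6 when control replicate 1 was left out too. Groups did not overlap for 3 higher and 13 lower members, where 9.02% and 7.3% of all genes did so. DESeq2 called 333 genes (2.11% of 15762) with Gtf2f1 as the only member, and limma-voom called 1 gene (0.00589%) that is no member.

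Gtf2f1 averaged 17.7 ± 5.12 CPM with glucose plus ZGW serum and 40.4 ± 5.65 CPM in control (SD, n = 3 each). The control libraries were 46.8, 38.2 and 36.1 CPM, all above the 3 serum libraries already given (log2 fold change -1.19 ± 0.37, edgeR adjusted p = 0.403, DESeq2 adjusted p = 0.0311). Gtf2a1 was likewise lower in every serum library than the 663, 765 and 582 CPM of control (-0.84 ± 0.28, edgeR adjusted p = 0.415). All 5 TFIIH genes and 7 of the 8 TFIIA, TFIIB, TFIIE and TFIIF genes had negative values against control, with medians of -0.23 and -0.45. Taf9b was lower than the 109, 155 and 188 CPM of control (-0.74 ± 0.28, edgeR adjusted p = 0.448), and Tbpl1, the TBP-like factor, had 74.4, 60.4 and 79.1 CPM with glucose plus ZGW serum, against 103, 138 and 120 CPM in control (-0.76 ± 0.33, edgeR adjusted p = 0.487). This comparison shares its control libraries with high glucose against control, so the values of the 2 are only set side by side. Polr2h and Polr2c had log2 fold changes of -0.94 ± 0.36 and -0.61 ± 0.24 with glucose plus ZGW serum against control.

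On the higher side, Med15, a tail subunit that several activators bind, had 66.3, 117 and 171 CPM with glucose plus ZGW serum, against 43.9, 43.5 and 60.8 CPM in control. The groups did not overlap (1.26 ± 0.39, edgeR adjusted p = 0.409). Polr2a had 14.5, 6.12 and 37.9 CPM with glucose plus ZGW serum, against 4.60, 7.75 and 1.90 CPM in control, with overlap. Its log2 fold change of 2.03 ± 0.77 (edgeR adjusted p = 0.448) was, with single libraries left out, between 1.14, without glucose plus ZGW serum replicate 3, and 2.58. The other higher members of lowest p were Taf15 at 1.83 ± 0.83, Polr2j at 0.42 ± 0.24 and Polr2m at 2.59 ± 1.57, and Polr2m ranged from 0.16, without glucose plus ZGW serum replicate 3, to 3.62. Summed Pol II RNA in the serum libraries, 2505 to 3211 CPM, overlapped with the 2514 to 3234 CPM of control.

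**Figure D3:**
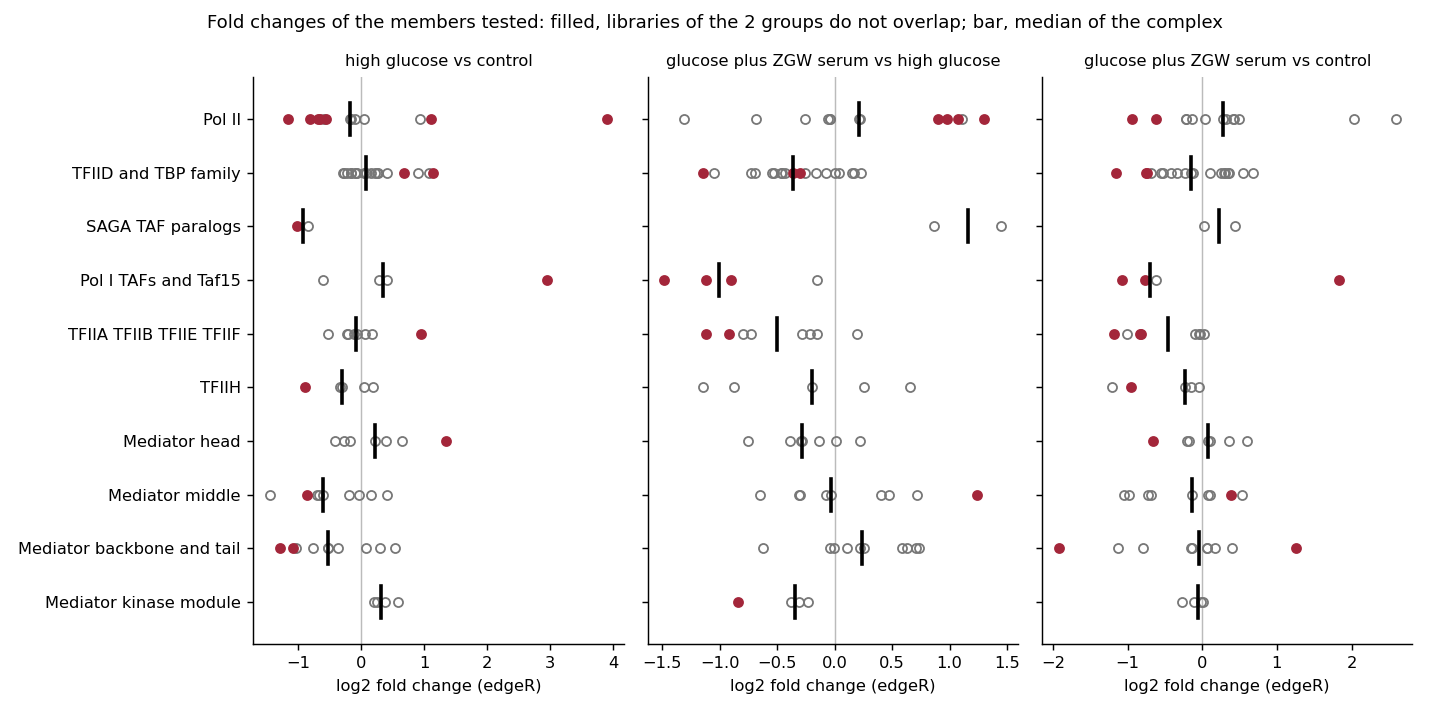
Log2 fold change (edgeR) of each of the tested members except Med9os, by complex. A point is filled where the libraries of the compared groups do not overlap, and a bar stands at the median. Filled points of Pol II sit mostly at negative values in high glucose against control and at positive values in glucose plus ZGW serum against high glucose, 2 comparisons that share the high glucose libraries.

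The members with short transcripts lay on the same side together. All 13 members with transcripts under 1000 bases were lower in high glucose than in control, at a median log2 fold change of -0.42, as were 1810 of the 2673 tested genes of that length, at a median of -0.31. The 23 members of at least 3000 bases were higher in 16 cases, at a median of 0.24, beside 3415 of 5914 genes of that length. In glucose plus ZGW serum against high glucose, 11 of the 13 short members were higher, beside 1801 of 2673 genes. Against control, 6 of the 13 were higher with ZGW serum. The Spearman correlation of fold change with transcript length was 0.46 over members and 0.18 over all 16718 genes in high glucose against control, and -0.29 and -0.11 in glucose plus ZGW serum against high glucose. The length limits were chosen after the values were seen, and without control replicate 1 and glucose plus ZGW serum replicate 3 1 of the 13 was higher in high glucose than in control. RNA integrity was not analysed here, and the part of length in the differences was not tested.

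**Figure D4:**
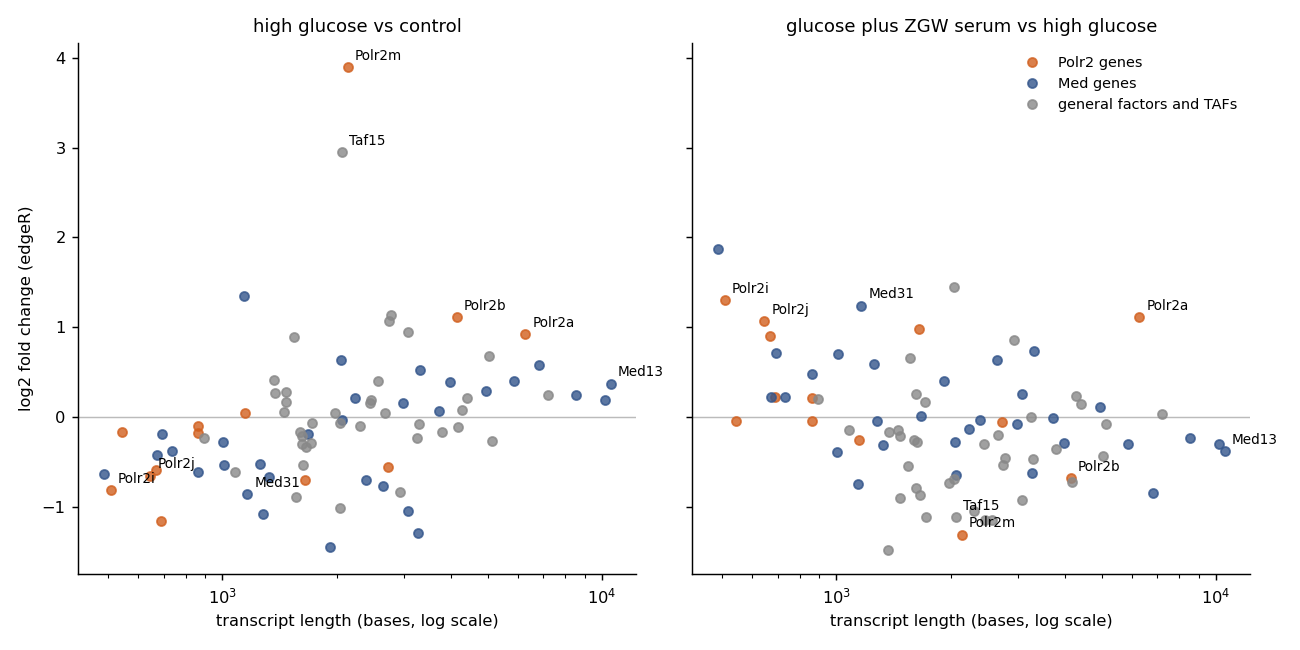
Log2 fold change (edgeR) against transcript length in bases (log scale) for the tested members, high glucose against control at the left and glucose plus ZGW serum against high glucose at the right, coloured by gene family. Short Polr2 genes such as Polr2i and Polr2j lie below 0 at the left and above 0 at the right, and the Spearman correlations are 0.46 and -0.29.

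The members with a paralog show which copy dominated the RNA pool. Tbpl2 exceeded Tbp per kb in all 9 libraries, by 3.12, 2.62 and 7.93 times with glucose plus ZGW serum, by 2.35, 1.50 and 4.15 times under high glucose, and by 2.24, 3.02 and 1.46 times in control. Tbp had 63.5, 37.2 and 17.7 CPM with glucose plus ZGW serum, 83.5, 66.7 and 46.1 CPM under high glucose and 54.9, 53.4 and 82.2 CPM in control. Tbpl2 had 138, 67.9 and 97.8 CPM with glucose plus ZGW serum, 137, 70.0 and 133 CPM under high glucose and 85.7, 112 and 83.8 CPM in control. The groups overlapped for both genes, and their log2 fold changes for glucose plus ZGW serum against control were -0.69 ± 0.45 for Tbp and 0.11 ± 0.35 for Tbpl2. The high ratio of 7.93 in serum replicate 3 comes with the lowest Tbp value of the 9 libraries.

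Taf4a was above Taf4b per kb in every library, by 1.22 to 6.78 times, and Taf7 was above Taf7l in every library. Taf7l was uneven, with 9.55, 6.22 and 6.58 CPM with glucose plus ZGW serum, 21.3, 5.39 and 5.95 CPM under high glucose, and 0.365, 17.2 and 0 CPM in control. Gtf2a1 exceeded Gtf2a1l by 14.0 to 69.3 times per kb across the libraries, and Med13 exceeded Med13l by 1.14 to 4.87 times. Med12l stood above Med12 in all 9 libraries, by 1.21 to 5.35 times per kb, though both were low. Med12 had 6.31, 7.02 and 4.18 CPM with glucose plus ZGW serum, against 15.3, 8.78 and 7.42 CPM under high glucose and 5.40, 3.58 and 12.1 CPM in control. The serum and high glucose groups did not overlap for Med12, at -0.84 ± 0.67 (edgeR adjusted p = 0.772).

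Taf9 and Taf9b encode related histone-fold partners of TAF6. The share of Taf9b in the summed Taf9 and Taf9b level per kb was 4.55%, 4.61% and 4.79% with glucose plus ZGW serum, 7.33%, 6.86% and 11.5% under high glucose, and 3.62%, 5.95% and 8.37% in control. The serum and high glucose libraries did not overlap, and control overlapped with both. Taf9 itself had 1363, 1027 and 1053 CPM with glucose plus ZGW serum, 1761, 1301 and 1043 CPM under high glucose and 1803, 1517 and 1278 CPM in control, with the Ak6 overlap given above. Its log2 fold change of glucose plus ZGW serum against high glucose was -0.25 ± 0.26.

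**Figure D5:**
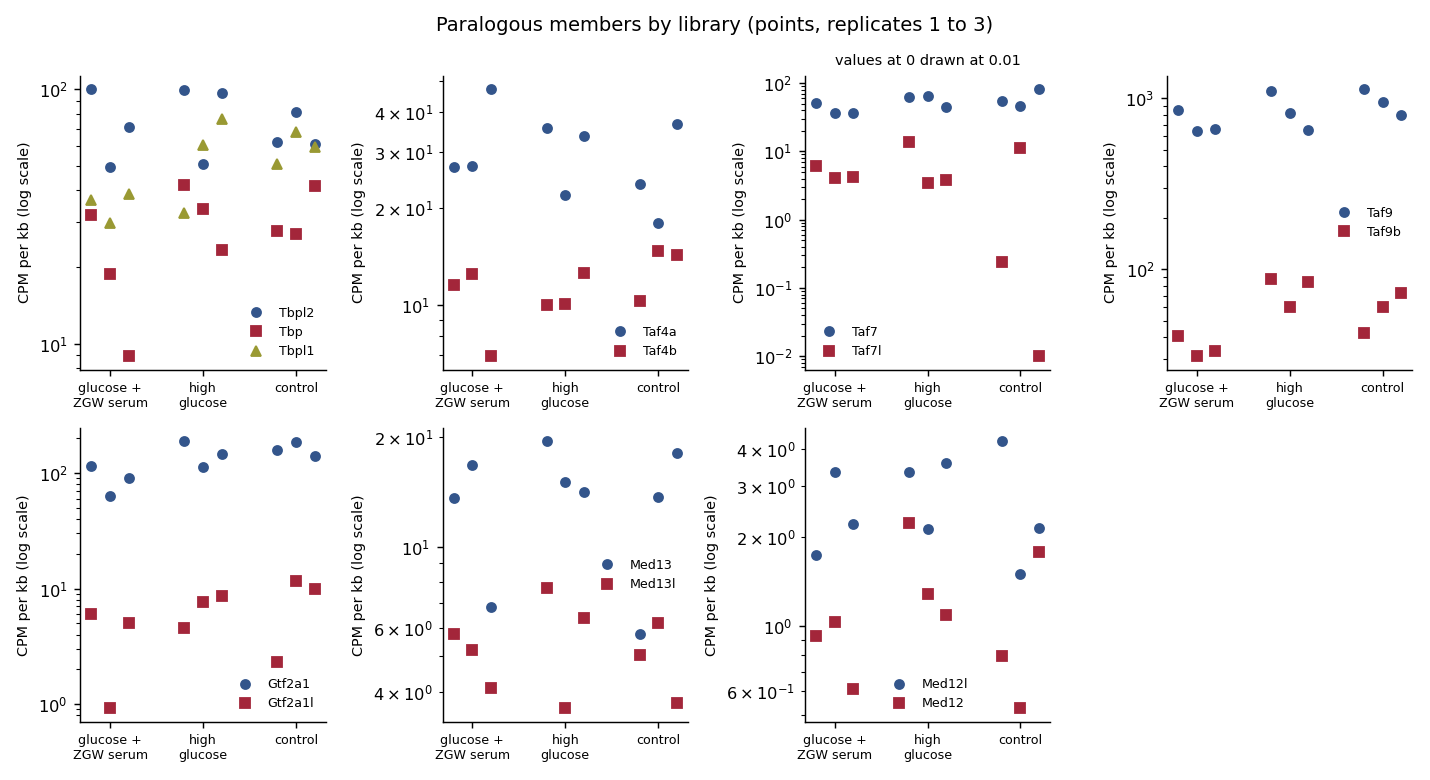
CPM per kb of transcript (log scale) in each library for 7 paralog groups, glucose plus ZGW serum at the left, high glucose in the middle and control at the right of each panel. Tbpl2 lies above Tbp, Taf9 above Taf9b and Med12l above Med12 in all 9 libraries, and Taf7l is listed at 0 in control replicate 3.

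A few members had very low values in 1 or 2 libraries of a group. Gtf2e1 had 16.6, 14.9 and 0.356 CPM with glucose plus ZGW serum, against 17.9, 19.9 and 22.7 CPM under high glucose and 17.2, 7.83 and 6.43 CPM in control. Med8, a head subunit, was at 0.292 CPM in control replicate 1, against 4.40 and 6.43 CPM in the other control libraries, and at 0.710 CPM in glucose plus ZGW serum replicate 1. Med4, of the middle module, was at 8.80 CPM in glucose plus ZGW serum replicate 3, against 64.9 and 80.9 CPM in its group. Med24, a tail subunit, had 8.13, 0.904 and 0.711 CPM with glucose plus ZGW serum, against 6.43, 6.16 and 2.45 CPM under high glucose and 11.3, 12.8 and 12.8 CPM in control. Control was above both other groups in every library, with a log2 fold change of -1.92 ± 0.95 (edgeR adjusted p = 0.535) for glucose plus ZGW serum against control.

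Genes that work with this machinery but fall outside its symbols were measured too. Of 8 Mediator kinase and TFIIH partners, 4 were higher in high glucose than in control, 4 with glucose plus ZGW serum than under high glucose and 3 than in control, with none at an unadjusted p under 0.05. Of 30 tested pausing and elongation genes, 16 were higher in high glucose than in control, 12 with glucose plus ZGW serum than under high glucose and 11 than in control. Tcea1, the elongation factor TFIIS, averaged 309 ± 25.7 CPM with glucose plus ZGW serum and 523 ± 83.9 CPM under high glucose (SD, n = 3 each), with a log2 fold change of -0.76 ± 0.22 (edgeR adjusted p = 0.447). Larp7, which holds the 7SK RNA, averaged 15.8 ± 5.46 CPM with glucose plus ZGW serum and 42.1 ± 8.99 CPM under high glucose (-1.41 ± 0.42, edgeR adjusted p = 0.448). No gene of these lists passed edgeR's threshold in any comparison.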

How the data were processed

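RNA sequencing counts per gene symbol were deposited by the authors as raw whole numbers for 9 libraries. Reads were trimmed with Trim Galore and the genome was mm10, per the submitters' processing notes. The aligner, counting tool, annotation and strand setting were not given in the sources used here. Groups came from the labels, which name no batch.

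Counts were fitted with edgeR 4.0.16 in R 4.3.3 (quasi-likelihood, robust, TMM factors, 1 mean per group over all 9 libraries) after filterByExpr with minimum count 10. P-values of the 16964 genes tested were Benjamini-Hochberg adjusted, with a threshold of 0.05. Precision is limited by a common biological coefficient of variation of 0.731. The scripts were tested on simulated data. CPM are counts relative to the library total times its TMM factor. Transcript length is the median over a gene's basic protein-coding transcripts in GENCODE for GRCm38, the same assembly as mm10. Error values are SD for levels and SE for log2 fold changes. Group ranges that do not overlap have all 3 libraries of a group above all 3 of the other.

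The members and lists were chosen with earlier results of these data known. Members named in each comparison are the 5 of lowest p-value each way, where none pass, with the paralogs, Polr2a and, per complex, the highest 2 and lowest 1 per kb. Med24, Med4, Med8, Gtf2e1 and other members with non-overlapping groups were named after their values were seen. Alternatives were other size factors, DESeq2 1.42.0, limma-voom (limma 3.58.1), other filters, fits restricted to a pair of groups, a block for the replicate number and leaving out libraries.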

Additional observations from a re-analysis of the deposited data

How the results depend on the processing

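None of the counts, medians and members of lowest p changed sign under an alternative, but differences of many other members did, some of them large. In glucose plus ZGW serum against control, Gtf2h2 was at -1.21 and ran from -1.82 to 0.66. Med8 was at 0.60 there and ran from -1.08 to 1.22. Among smaller differences, Taf1d ran from -0.45 to 0.23 in glucose plus ZGW serum against high glucose. Tbpl2 ran from -0.18 to 0.30 in glucose plus ZGW serum against control. In high glucose against control Polr2e ran from -0.05 to 0.17 and Polr2d from -0.21 to 0.00. Of the results that answer a comparison, 197 values under alternatives stayed close to the reported count or median and 13 moved. For a median, closeness was judged against the spread of library medians within groups and not by sign. DESeq2 called 122 genes in high glucose against control, 241 in glucose plus ZGW serum against high glucose and 333 in glucose plus ZGW serum against control, where edgeR called 0 in each, and 4 member results then passed: Med31, Polr2j and Taf9b in the second comparison and Gtf2f1 in the last. In glucose plus ZGW serum against control, limma-voom, no filter and 10 counts in 6 libraries each called 1 gene. The cause was not tested. Members at an unadjusted p under 0.05 in that comparison were 16 by DESeq2 and 6 without control replicate 1 and glucose plus ZGW serum replicate 3 together, against 10. Leaving out single libraries gave 5 to 12 such members in high glucose against control, 7 to 16 in glucose plus ZGW serum against high glucose and 5 to 12 in glucose plus ZGW serum against control. The lowest values came without control replicate 2 (5), control replicate 1 or high glucose replicate 1 (6 each) in the first comparison and glucose plus ZGW serum replicate 3 (5) in the last, and the highest without glucose plus ZGW serum replicate 1 (16) in the second. Whether the replicate numbers pair libraries was not settled, as the labels do not say and a group holds only 3 libraries. Correlations of same-numbered deviations were -0.00648 to 0.104, while 6 of 9 libraries correlated best with their own number. With the replicate block, 12, 10 and 13 members had an unadjusted p under 0.05 and 0 genes passed in each comparison. With a common coefficient of variation of 0.731, differences of low members such as Polr2m, Taf15 and Taf7l are limited by depth and spread.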

Other observations

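The polymerases beside Pol II were measured in the same libraries. Of 19 Pol I and Pol III subunit genes, 8 were higher in high glucose than in control, 11 with glucose plus ZGW serum than under high glucose and 6 than in control. Polr1a, the largest Pol I subunit, had 0.868, 0.691 and 0.356 CPM with glucose plus ZGW serum and averaged 6.65 ± 2.19 CPM under high glucose (SD, n = 3), with a log2 fold change of -3.36 ± 1.04 (edgeR adjusted p = 0.465). Of 15 Pol II assembly and phosphatase genes, 8 were higher in high glucose than in control, 6 with glucose plus ZGW serum than under high glucose and 7 than in control. Ctdsp1, a small phosphatase of the Pol II C-terminal domain, averaged 25.5 ± 20.6 CPM with glucose plus ZGW serum and 5.98 ± 3.31 CPM in control (SD, n = 3 each), at 2.09 ± 0.70 (edgeR adjusted p = 0.413). Of 14 Integrator genes, which process the ends of small nuclear RNAs, 10 were lower with glucose plus ZGW serum than under high glucose, at a median of -0.43, and 10 were lower than in control, at -0.61. In high glucose against control 8 of 14 were lower. Ints8 had 62.7, 65.2 and 60.5 CPM with glucose plus ZGW serum and averaged 97.1 ± 27.6 CPM under high glucose (SD, n = 3), at -0.63 ± 0.35 (edgeR adjusted p = 0.655). No gene of these lists passed edgeR's threshold in any comparison.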
